A study of Mus musculus with 50 samples.

Results

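Kupffer cells, the resident macrophages of the liver, were compared by their distance to biliary cells in sections of control and HIRA KO mouse liver. A segmented cell was taken as a Kupffer cell when Cd5l, C1qa, C1qb, C1qc and Marco together had at least 4 counts and at least 4% of its gene counts, and as a biliary cell when Sox9, Krt19, Krt7, Epcam, Anxa4 and Cdh1 together had at least 3 counts and at least 3%. Of 49665 cells kept from 52132 segmented cells, 1707 were Kupffer cells, 386 were biliary cells, 3 met both rules and 47575 met neither. Within each tissue area the Kupffer cells were ordered by the distance from their centre to that of the closest biliary cell and split at the median, which gave 856 cells in the near group and 851 in the far group. The members were thus chosen by their counts of these 11 genes and by their positions, and the 11 genes are given by value only.

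The data come from CosMx spatial molecular imaging, an assay that reads fluorescent probes in place, counts single transcripts of 1000 gene targets and assigns them to segmented cells. HIRA is a chaperone that deposits the histone variant H3.3. Control mice were WT and HIRA KO mice were HIRA fl/fl, both on C57BL/6, and both received AAV8 Tbg-Cre, a virus that carries Cre under a hepatocyte-specific promoter, so the Kupffer cells of both groups were not the cells in which this promoter drives Cre. Mice were injected at 6 months of age and livers were taken at 18 months, 12 months later, as 5 µm sections. The 50 fields of view, 25 per group, formed 3 control and 3 HIRA KO tissue areas, and the labels name no mouse, so the tissue area served as the replicate. The gene tests share their estimate of spread over genes, so a gene's own spread between areas enters its p-value only in part. For near against far, the spread is that of the difference within an area. Hira was not among the targets and the deletion could not be checked here.

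Kupffer cells lie in the sinusoids, where they take up particles, dying cells and aged erythrocytes from portal blood. They recycle iron, secrete complement C1q and the scavenger protein CD5L, and bear scavenger receptors such as MARCO and CD163. Biliary cells line the bile ducts that run with the portal vein and hepatic artery, so distance from a biliary cell follows, in part, the axis from portal tract to central vein along which hepatocytes divide their tasks.

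The cells met their labels on genes that the rule did not use. Levels are given throughout as counts of a target per 10000 gene counts summed over the cells of 1 area. Csf1r, the receptor that macrophages need for survival, was at 27.8 in Kupffer cells and 5.5 in cells of neither rule, called other cells below. Slc40a1, the iron exporter ferroportin, was at 49 against 13.9, and the lysosomal protein gene Cd68 was at 30.1 against 9.7. All 3 genes were higher in Kupffer cells in 6 of 6 areas, as were Tyrobp, Nr1h3 and Cd74. The CD45 stain, a protein of all leukocytes, had a mean intensity of 2743 in Kupffer cells and 857.7 in other cells, higher in 6 of 6 areas (exact sign-flip permutation test, two-sided, p = 0.03125, the smallest that 6 areas allow). The stain for CD3, a T cell protein, was also higher in 6 of 6 areas, at 691.6 against 639.2, as was B2M, at 4639 against 3158 (same test, p = 0.03125 each). The CD45 stain was thus not the only one to be higher. Adgre1, Vsig4, Clec4f and Timd4 were not among the targets, so a Kupffer cell here cannot be told from another macrophage that holds C1q and CD5L transcripts.

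The biliary cells were less uniform. Spp1 and Clu, which the rule did not use and which bile duct cells express, were at 85.2 and 297 in biliary cells and at 8.64 and 42.2 in other cells, higher in 6 of 6 areas. At least 3 counts of Spp1 and Clu were present in 50.8% of biliary cells and in 7.09% of other cells. In control area 2 only 14.3% of the biliary cells reached this, 7 of 49, against 52.7% to 60.7% in the other 5 areas. The PanCK stain, for epithelial keratins, was 2877 in biliary cells and 2784 in other cells, higher in 5 of 6 areas (exact permutation test, two-sided, p = 0.1562). The gene tests, the median distances, the per-cell measures and the lists of surrounding cells were therefore also computed with the distance taken to the 196 biliary cells that held at least 3 counts of Spp1 and Clu.

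HIRA KO area 3 stood apart from the other areas. Kupffer cells were 7.89% of its cells and 1.72% to 4.89% in the other areas, and it held 587 of the 1707 Kupffer cells but only 36 of the 386 biliary cells. The Kupffer cells of the 6 areas numbered 195, 191 and 343 in controls and 175, 216 and 587 in HIRA KO, with 264816 gene counts in all and 11469 to 55836 in each near or far sum. Of the 1000 targets, 731 had more counts in Kupffer cells than the highest of 10 negative probes, which stood at 4.38 per 10000. A cell at the lower limit of the rule rested on few transcripts. The Kupffer cells had a median of 8 counts of the 5 genes, 241 of them had exactly 4, 260 cells with 3 counts and at least 4% were left out, and 2561 cells with 4 or more counts were left out for a share under 4%. Of the biliary cells, 196 had exactly 3 counts, and 352 cells with 2 counts and at least 3% were left out.

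Kupffer cells had a larger median distance to biliary cells than other cells in 5 of 6 areas, a difference that did not pass the test, and made up a smaller share of the cells within 500 px of a biliary cell in 5 of 6 areas. The median distance of Kupffer cells was 1200, 879.5 and 907.4 px in the control areas and 828, 766.9 and 1236 px in the HIRA KO areas. That of other cells was 991.8, 909.5 and 824.5 px in controls and 745.4, 728.6 and 1147 px in HIRA KO. Kupffer cells were thus the farther of both in every area but control area 2. The mean log2 ratio was 0.116, which did not pass the threshold (exact sign-flip permutation test over 6 areas, two-sided, p = 0.0625). With distance taken to the biliary cells that held Spp1 and Clu, it was 0.153 with 6 of 6 areas in this direction (exact p = 0.03125, an alternative chosen after seeing the data). A typical cell was 121.551 px across, so the Kupffer medians lay 6.31 to 10.2 cell diameters from the nearest biliary cell, and 24 Kupffer cells lay within 1 diameter.

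**Figure D1:**
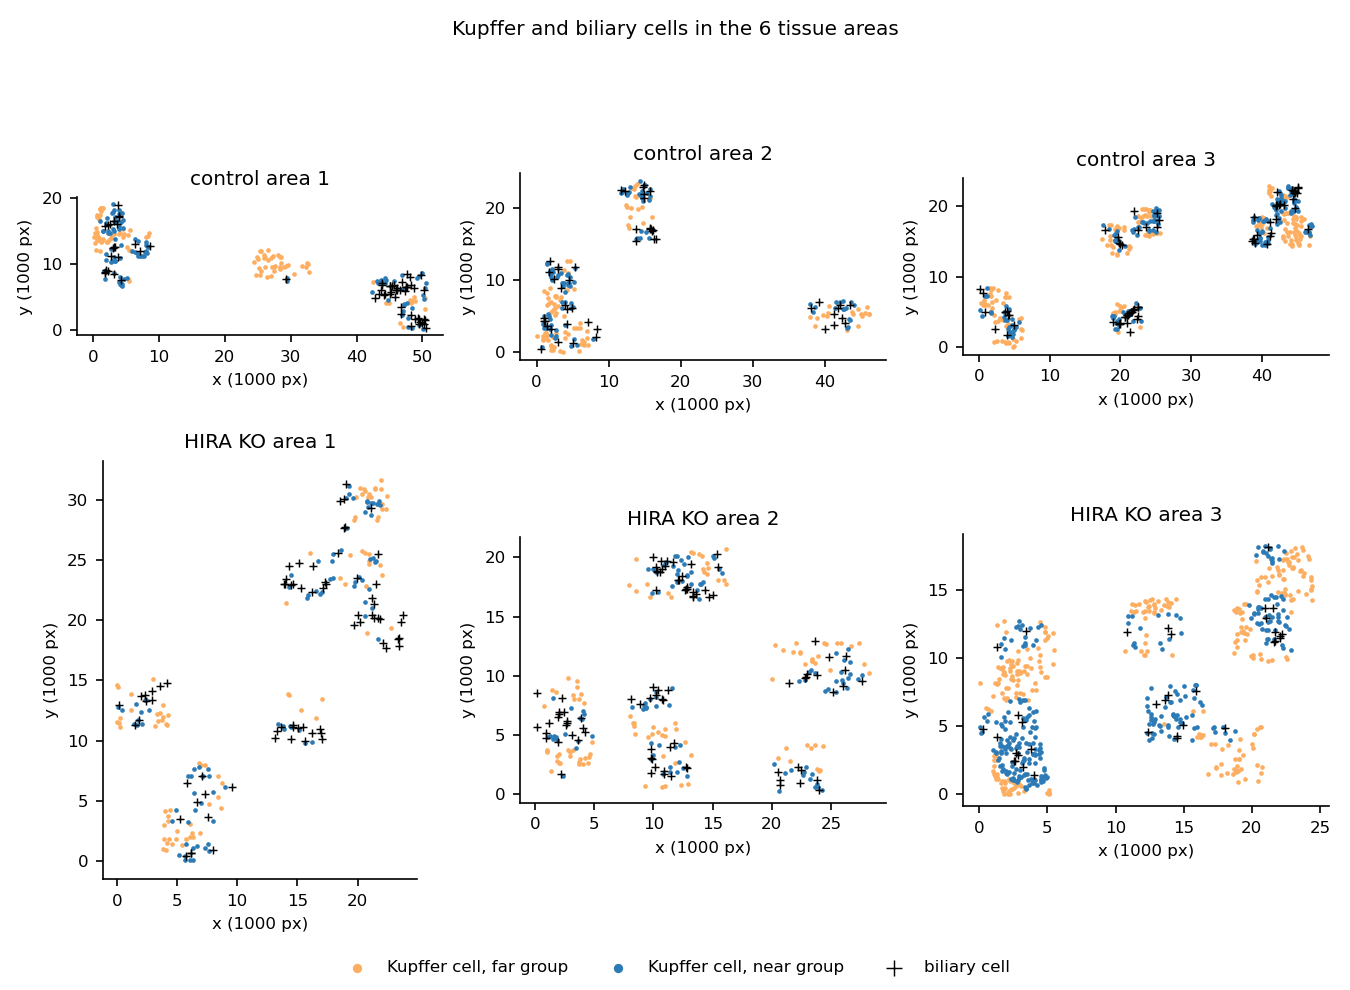
Positions of Kupffer and biliary cells in each tissue area, with both axes in 1000 px from the area's lowest corner and 1 point per cell. Blue points are the near group, orange points the far group and black crosses biliary cells, and the 3 cells that met both rules are drawn as Kupffer cells. The fields of view of an area are separate patches, and Kupffer cells are densest in HIRA KO area 3.

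Among cells within 500 px of a biliary cell, Kupffer cells made up 1.36%, 2.95% and 3.53% in the control areas and 1.27%, 1.94% and 5.4% in the HIRA KO areas. Beyond 500 px they made up 2.73%, 2.80% and 5.45% in controls and 1.92%, 2.26% and 8.44% in HIRA KO. The share was lower close to biliary cells in 5 of 6 areas, with control area 2 the exception, and is given as a description because its pieces are cells of the same areas. The median distance of Kupffer cells was 995.7 ± 178 px in control and 943.7 ± 255 px in HIRA KO (SD, n = 3 areas each), a difference of -52.0 px that did not exceed the spread between areas (exact permutation test, two-sided, p = 0.6, smallest possible 0.1). Of the near group, 488 cells had their nearest biliary cell closer than the edge of their field of view, but only 98 of the far group did, so the far distances are in part set by where imaging stopped. Keeping only Kupffer cells whose nearest biliary cell was closer than that edge is called the edge setting below. Its near and far groups were redrawn at the median distance of the kept cells of each area. This gave 294 near and 292 far cells, so they are not the groups used elsewhere. Other cells were limited in the same way.

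**Figure D2:**
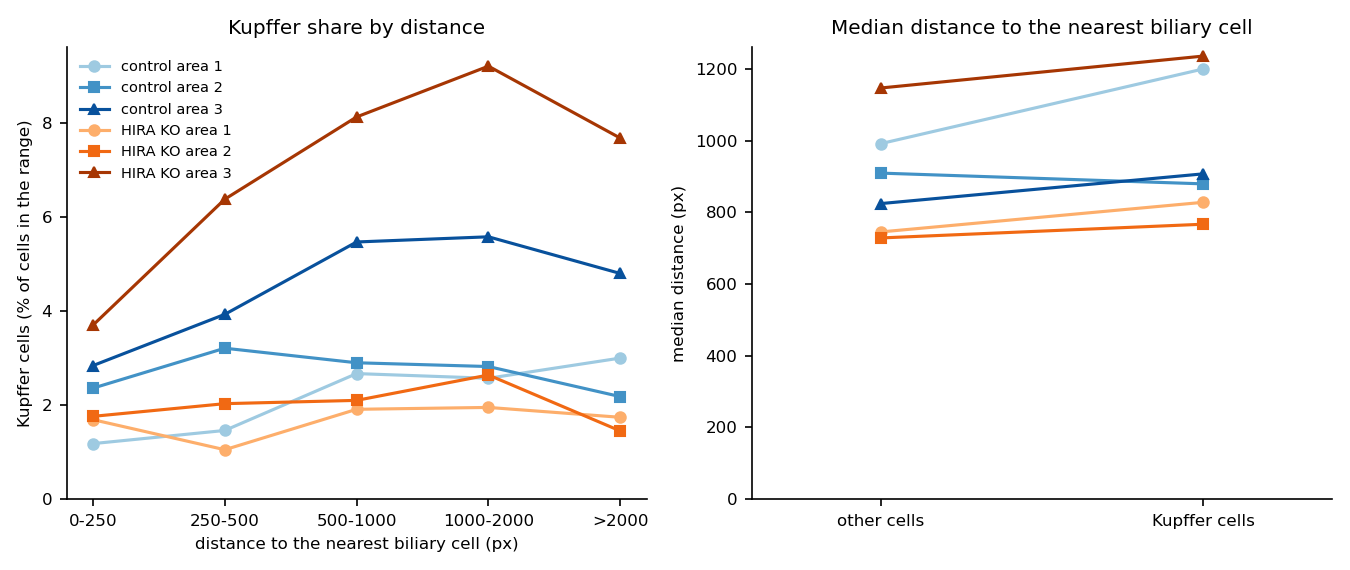
Left, the share of cells that are Kupffer cells (%) in 5 ranges of distance to the nearest biliary cell (px), with 1 line per tissue area. Right, the median distance to the nearest biliary cell (px) of other cells and Kupffer cells, 1 line per area, where the Kupffer value is the higher in 5 of 6 areas.

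The split fell at a different distance in each area. The last near and the first far cell lay at 1200.13 and 1204.09 px in control area 1, 879.48 and 880.366 px in control area 2, and 907.397 and 907.564 px in control area 3. In HIRA KO areas 1, 2 and 3 they lay at 827.964 and 828.005, 762.058 and 771.656, and 1236.16 and 1245.06 px. A Kupffer cell at 1000 px was therefore a near cell in control area 1 and HIRA KO area 3 and a far cell in the other 4.

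The genes of the Kupffer rule had like levels in both groups. Cd5l was at 144 ± 23 in near and 154 ± 18.4 in far Kupffer cells (SD, n = 6 areas, as for all means below unless stated). The C1q subunit genes C1qa, C1qb and C1qc were at 161 and 151, at 184 and 182, and at 71.1 and 69.9. Marco was at 34.4 ± 16.3 near and 29.1 ± 12.2 far, with a wide range between areas. The biliary rule genes gave 26.6 to 40.3 per 10000 in near and 24.7 to 45 in far Kupffer cells when summed, and were higher near in 4 of 6 areas. Only 2 of these 6 genes had more counts in Kupffer cells than the highest negative probe.

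No gene outside the rule differed between near and far Kupffer cells past the threshold. Of 455 targets tested, 0 were called (0.0%; edgeR's quasi-likelihood test with the area as a block, Benjamini-Hochberg adjusted p under 0.05), 18 had an unadjusted p under 0.05 (3.96%), and DESeq2 called 0, with 1 at an unadjusted p under 0.05. The median log2 difference, near minus far, was -0.01 and the range -0.59 to 0.57, with 219 targets higher near (48.1%) and 236 lower (51.9%). The depth set a limit to what could be seen: the 95% interval of a gene reached a median of 0.40 on the log2 scale to either side (0.11 to 0.58), and for 451 of the 455 targets the whole interval lay within a 2-fold difference. The genes named below are those with the lowest p of each gene list, and all had an adjusted p of 0.936 or more.

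Macrophage identity genes were close to equal in both groups. Of 15 on the panel, all 15 were tested, 0 were called, 9 were higher and 6 lower near, and their median log2 difference was 0.03 beside -0.01 over all targets. Csf1r was at 28.4 near and 27.2 far, Cd68 at 31.4 and 28.8, and Mrc1, a mannose receptor, at 29.1 and 28.1. Nr1h3, which encodes the lipid-sensing nuclear receptor LXR alpha, was at 34.8 and 30.3, and Tyrobp, a signalling adaptor, at 37.5 and 43.5. The member with the lowest p was Slc40a1, through which macrophages return iron to the blood. Its near levels were 61.3, 45.7 and 55.6 in control areas 1, 2 and 3 and 45.3, 58.7 and 49.7 in HIRA KO areas 1, 2 and 3. Its far levels were 43.5, 43.8 and 44.8 in controls and 47.6, 46.4 and 47.1 in HIRA KO. The far levels lay close together, and the near levels were higher in 5 of 6 areas, by most in control areas 1 and 3 and HIRA KO area 2. The fitted log2 difference was 0.19 ± 0.10 (SE), with a 95% interval from -0.01 to 0.39 (edgeR's quasi-likelihood test, unadjusted p = 0.0661, adjusted p = 0.937). It was 0.00 with a biliary rule of 4 counts and 4%, 0.08 with distance to the biliary cells that held Spp1 and Clu, 0.09 with a split within each field of view and 0.41 with nuclear transcripts.

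Antigen presentation showed no common direction. Of 8 MHC class II genes tested of 11 on the panel, 3 were higher and 5 lower near, 0 were called, and the median log2 difference was -0.04. The chains H2-Aa and H2-Ab1 were at 67.1 near and 60.3 far and at 86.6 and 88.6, and the invariant chain gene Cd74 was at 175 and 168. Cd86, a co-stimulator of T cells on the same list, was at 10.1, 16.1 and 17.1 near and 15, 15.6 and 12.2 far in control areas 1, 2 and 3. In HIRA KO areas 1, 2 and 3 it was at 13.1, 13.9 and 12.8 near and 18.7, 20.2 and 20.1 far. It was lower near in all 3 HIRA KO areas and in control area 1 only, with a log2 difference of -0.33 ± 0.17 (95% interval -0.68 to 0.02).

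Lysosomal and lipid-handling macrophage genes were 6 higher and 5 lower near of 11 tested, of 13 on the panel, with 0 called and a median log2 difference of 0.01. Apoe was at 239 near and 237 far, the lysosomal activator gene Psap at 85.8 and 82.9, and the protease gene Ctsd at 53.3 and 55.4. Lgals3, which encodes galectin-3, a sugar-binding protein of activated macrophages, had the lowest p of the list. Its near levels were 12.6, 8.07 and 12.2 in controls and 8.72, 15.7 and 12.8 in HIRA KO, and its far levels were 21, 12.0 and 14.9 in controls and 22.9, 20.8 and 14 in HIRA KO. It was lower near in 6 of 6 areas, by little in HIRA KO area 3, and the near and far levels overlapped across areas. The log2 difference was -0.46 ± 0.18, with a 95% interval from -0.82 to -0.11 (edgeR's quasi-likelihood test, unadjusted p = 0.0118, adjusted p = 0.936). With biliary cells required to have 4 counts and 4%, an alternative chosen after seeing the data, this difference was 0.00.

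In all, 8 tested targets were lower near in 6 of 6 areas (1.76%) and 10 were higher near in 6 of 6 (2.2%). Those lower near, Lgals3 and Gpx1 among them, had log2 differences from -0.46 to -0.13, and those higher near, Emp3 and Ndrg1 among them and named with their values known, from 0.17 to 0.48. Fyn, a kinase gene also named with its values known, had the lowest unadjusted p of all targets, 0.00657, with a log2 difference of -0.59 ± 0.21 (edgeR's quasi-likelihood test, adjusted p = 0.936).

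Cytokine and chemokine genes were 8 higher and 7 lower near of 15 tested, of 28 on the panel, with 0 called and a median log2 difference of 0.03. Il1b was at 12.3 near and 12.9 far, Il10 at 9.86 and 9.65, and Cxcl16, a chemokine and scavenger receptor for oxidised lipids, at 20.4 and 16.4. Cxcl13, which encodes a chemokine that draws B cells, had the lowest p of the list. Its near levels were 14.3, 10.8 and 7.32 in controls and 2.62, 4.84 and 67.7 in HIRA KO, and its far levels 9.0, 14.1 and 12.2 in controls and 7.64, 8.32 and 81.0 in HIRA KO. HIRA KO area 3 was far above the other 5 areas in both groups, and the near level was the lower in 5 of 6 areas. The log2 difference, near minus far, was -0.33 ± 0.15 (95% interval -0.63 to -0.03), and it was -0.04 with distance to the biliary cells that held Spp1 and Clu, -0.13 with the 4-count biliary rule and -0.21 with a split within each field of view.

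Interferon response genes were 11 higher and 6 lower near of 17 tested, of 19 on the panel, with 0 called and a median log2 difference of 0.08. B2m, the light chain of MHC class I, was at 110 near and 99.3 far. Ifitm3, which restricts entry of enveloped viruses, was at 28.6, 24.2 and 24.4 near and 39.7, 33.9 and 38.9 far in controls. In HIRA KO it was at 34.9, 18.1 and 28.8 near and 29.7, 27.9 and 30.3 far. It was lower near in 5 of 6 areas, and HIRA KO area 1 went the other way. The log2 difference was -0.32 ± 0.13 (95% interval -0.58 to -0.06), and it was 0.03 with distance to the biliary cells that held Spp1 and Clu and 0.01 with the 4-count biliary rule.

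Stress, metal and antioxidant genes were 6 higher and 9 lower near of 15 tested, of 18 on the panel, with 0 called and a median log2 difference of -0.08. Their summed level was 257.9 to 311.0 near and 279.7 to 327.3 far, and it was lower near in 6 of 6 areas. In the nearest cells of neither rule, the list summed to 297.2 around near and 309.8 around far Kupffer cells. This sum was higher near in 1 of 6 areas (exact sign-flip permutation test, two-sided, p = 0.0625, adjusted p = 0.2812). The median log2 difference of the list in other cells was 0.03. Gpx1, a glutathione peroxidase, had near levels of 94.9, 108 and 97.6 in controls and 108, 106 and 145 in HIRA KO, and far levels of 96.7, 117 and 114 in controls and 110, 118 and 160 in HIRA KO. It was lower near within each of the 6 areas, by less than areas differed among themselves, with a log2 difference of -0.13 ± 0.07 (95% interval -0.28 to 0.01). In other cells the log2 difference of Gpx1 was -0.18 ± 0.08 (edgeR's quasi-likelihood test, adjusted p = 0.522). Its Kupffer minus other difference was 0.06 (edgeR, adjusted p = 0.988), so a drop particular to Kupffer cells was not shown. Sod1, a superoxide dismutase, was at 25.6 near and 29.8 far, and the metallothionein gene Mt1 at 13 and 13.9. Genes of recruited monocytes and dendritic cells were 2 higher and 4 lower of 6 tested, with a median of -0.14. Of these, Plac8 was at 14.2 ± 7.41 near and 12.1 ± 4.62 far.

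**Figure D3:**
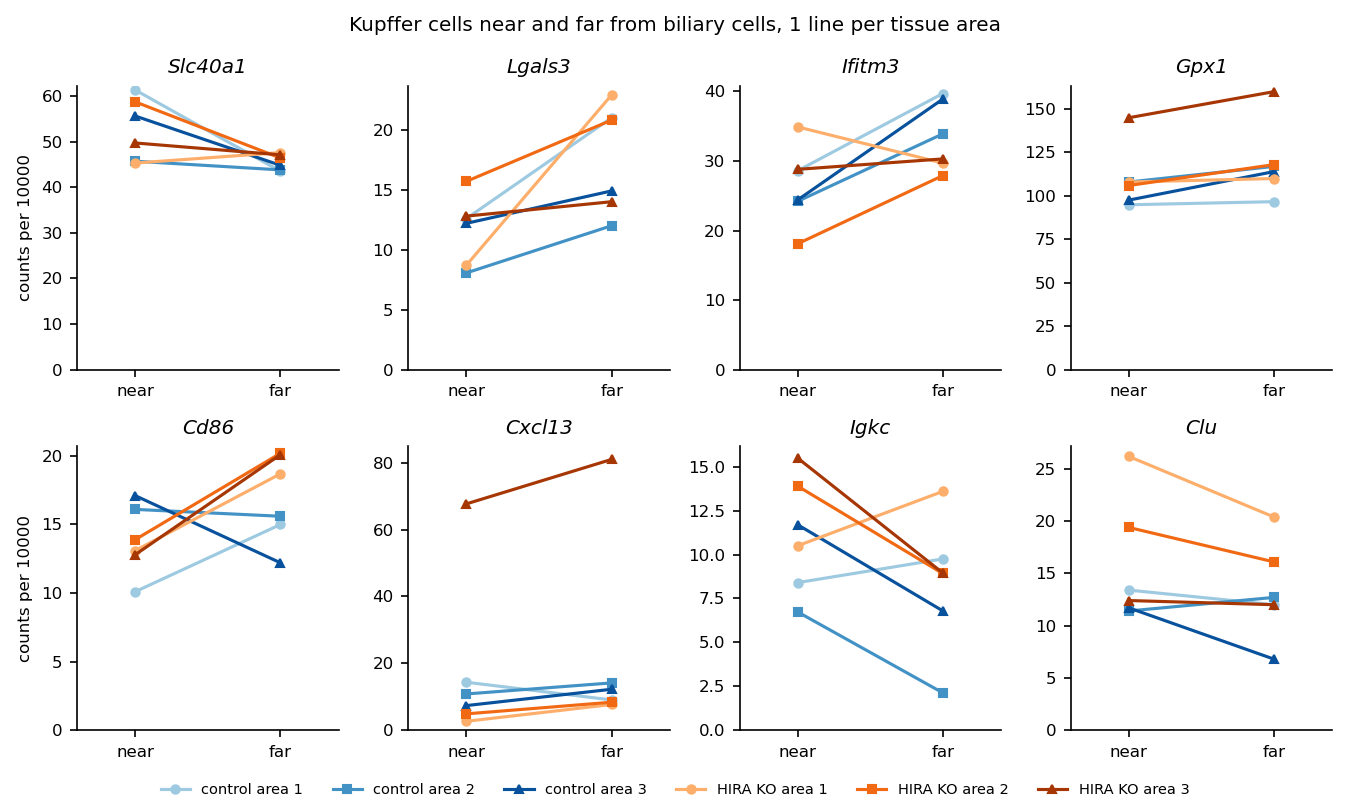
Levels of 8 genes (counts per 10000 gene counts) in the near and far Kupffer cells, with 1 line per tissue area, blue for control and orange for HIRA KO, and each axis starting at 0. Lgals3 and Gpx1 are lower near in 6 of 6 areas, Slc40a1 and Clu higher near in 5 of 6, and Cxcl13 is far higher in HIRA KO area 3 than elsewhere.

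Transcripts that mark other cell types were counted in Kupffer cells. The hepatocyte list summed to 346.1 to 570.4 per 10000 in near and 334.5 to 619.5 in far Kupffer cells, with 6 of 14 tested genes higher and 8 lower near. Of its 19 markers 0 were at 0 counts, but the lowest negative probe also had 31 counts over all Kupffer cells. More counts than the highest negative probe were found for 17 of the 19. Other cholangiocyte genes, outside the rule, summed to 71.1 to 102.9 near and 66.0 to 88.6 far, with 4 of 5 tested genes higher near, 0 called and a median log2 difference of 0.11. Only 8 of the 14 on the panel had more counts in Kupffer cells than the highest negative probe. A negative probe stood at a mean of 3.16 per 10000, and the part of background in these sums was not tested. Portal mesenchyme and stellate lists had 4 higher and 4 lower and 5 higher and 4 lower near, each with a median of 0.05, and sinusoidal endothelial genes 1 higher and 4 lower with a median of -0.15. Of genes in these lists, Pdgfra, a receptor of portal fibroblasts and stellate cells, was at 8.47 ± 2.40 near and 5.54 ± 2.31 far. Igkc, the immunoglobulin kappa constant gene of plasma cells, was at 8.4, 6.73 and 11.7 near and 9.75, 2.12 and 6.79 far in controls, and at 10.5, 13.9 and 15.5 near and 13.6, 8.92 and 8.95 far in HIRA KO. It was higher near in 4 of 6 areas with overlapping ranges, at a log2 difference of 0.56 ± 0.20, and Cd27, a receptor of lymphocytes, was at 8.75 near and 5.74 far. Of the other list members with the lowest p, the tight junction gene Cldn4 was at 7.95 near and 6.69 far, the stellate growth factor gene Hgf at 11.3 and 9.56, and the nuclear long noncoding RNA Neat1, on the hepatocyte list, at 29.4 and 27.1. The endothelial genes Eng and Pecam1 were at 10.2 and 11.3 and at 6.57 and 7.71.

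Blood cell lists were small after the filter on low counts. T and NK cell genes had 4 higher and 4 lower near of 8 tested (median log2 difference 0.03), B and plasma cell genes 3 higher and 2 lower of 5 (0.08), and neutrophil genes 2 higher and 1 lower of 3 (0.11), led by the elastase gene Elane at 8.26 near and 7.38 far. Both haemoglobin genes were higher near (median 0.26), Hbb at 10.6 ± 3.34 near and 8.28 ± 1.91 far, and vessel endothelial genes had 1 higher and 2 lower of 3 (-0.02). None of these genes was called in edgeR, and the part of neighbouring cells in these levels was not tested.

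Set beside this, other cells split at the same distances did differ. Of 987 targets tested in them, 3 were called (0.304%), and 92 had an unadjusted p under 0.05 (9.32%). Spp1, which encodes osteopontin, was at 12.0 ± 3.34 near and 4.91 ± 2.01 far, 2.34-fold higher near, and was higher in 6 of 6 areas (edgeR's quasi-likelihood test, log2 difference 1.23 ± 0.15, adjusted p = 0.00151). Clu, which encodes the chaperone clusterin, was at 53.0 ± 14.8 near and 30.3 ± 11.1 far, 1.75-fold higher and in 6 of 6 areas (edgeR, 0.81 ± 0.10, adjusted p = 0.00174). Glul, the glutamine synthetase of hepatocytes around the central vein, fell by 0.59 ± 0.11 on the log2 scale and was lower near in 6 of 6 areas (edgeR, adjusted p = 0.0308). The Glul call was lost without any 1 of control areas 1, 2 and 3 and HIRA KO area 1 (-0.57 to -0.62, edgeR adjusted p from 0.0956 to 0.157), with distance to the biliary cells that held Spp1 and Clu (-0.69, adjusted p = 0.374), with the 4-count biliary rule (-0.57, 0.186), in the edge setting (-0.46, 0.228) and with nuclear transcripts (-0.34, 0.0818). Spp1 and Clu can also come from bile duct cells that the rule missed, and their part was not tested. As the split was by closeness to biliary cells, the higher near levels of Spp1 and Clu are in part built into it. Their p-values are thus no separate support for a difference between near and far tissue.

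In Kupffer cells, neither Clu nor Glul passed the test over the same split, and Spp1 had too few counts to be tested. Clu was at 13.4, 11.4 and 11.7 near and 12.0, 12.7 and 6.79 far in control Kupffer cells, and at 26.2, 19.4 and 12.4 near and 20.4, 16.1 and 12.0 far in HIRA KO. It was higher near in 5 of 6 areas, by most in control area 3 and HIRA KO area 1, with a log2 difference of 0.21 ± 0.18 (95% interval -0.14 to 0.57). Glul was at 21.3 ± 3.11 near and 22.2 ± 4.84 far, with a log2 difference of -0.10 ± 0.14 (95% interval -0.38 to 0.19). The difference between Kupffer and other cells was then tested itself. Of 455 targets, 0 were called (0.0%; edgeR's quasi-likelihood test), 28 had an unadjusted p under 0.05 (6.15%), and DESeq2 called 0, with 31 at an unadjusted p under 0.05. Clu had a Kupffer minus other difference of -0.58 ± 0.20 and Glul one of 0.53 ± 0.18 on the log2 scale, both with an adjusted p of 0.726 in edgeR, so a smaller gradient in Kupffer cells was not shown.

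**Figure D4:**
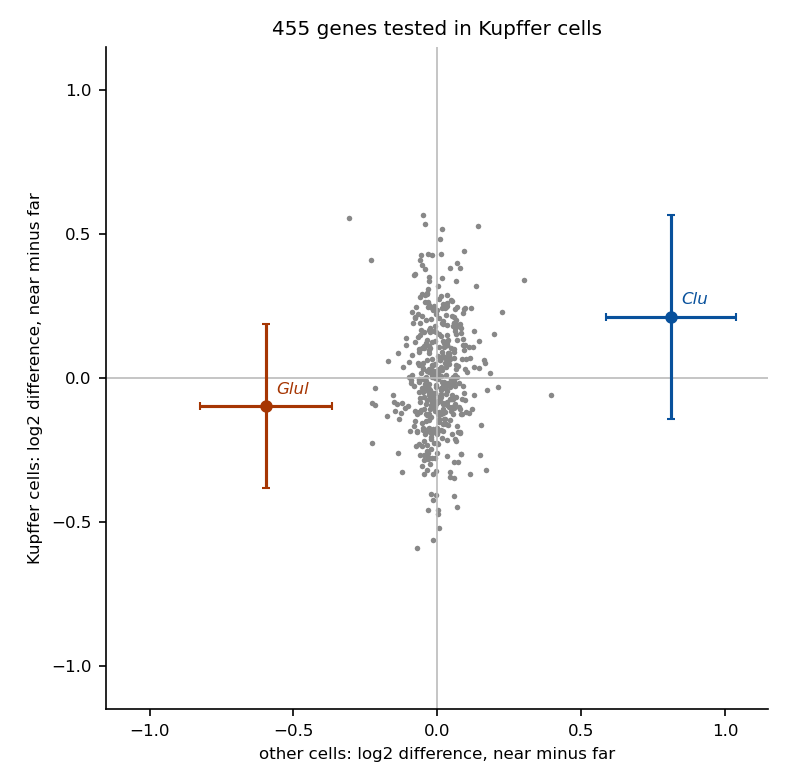
The near minus far log2 difference in other cells (horizontal) and in Kupffer cells (vertical) for the 455 targets tested in Kupffer cells, 1 grey point each. Clu and Glul, called in other cells, carry 95% intervals on both axes, and their vertical intervals include 0.

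A finer look at distance was made as a description, with genes chosen after their values were seen. The 91 Kupffer cells within 250 px of a biliary cell had Clu at 24.9 ± 12.3, and the 211 cells at 250 to 500 px, 558 at 500 to 1000 px, 610 at 1000 to 2000 px and 237 beyond had 17.4, 13.5, 12.8 and 14.7. Glul was at 35.5 ± 8.54 within 250 px and at 17.6, 20.6, 20.6 and 25.3 in the next ranges, the highest value being in the closest cells. Lgals3 was at 11, 11.8, 13, 17.7 and 14 over the same ranges, and Slc40a1 at 54.3, 51.5, 52.3, 46.5 and 39.1. The areas differed widely in the closest and the farthest ranges, where Slc40a1 spanned 25.1 to 88.9 and 22.7 to 62.1.

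In the surroundings of Kupffer cells, cholangiocyte and stellate cell genes were higher near in 6 of 6 areas, but no list passed the adjusted threshold. Over the 20 nearest cells of neither rule, other cholangiocyte genes summed to 130.1 ± 15.4 around near and 116.9 ± 12.6 around far Kupffer cells, a mean log2 ratio of 0.153 with 6 of 6 areas higher near. Stellate cell genes summed to 147.7 and 138.8, also with 6 of 6 areas higher near, and both lists reached the smallest p that 6 areas allow (exact sign-flip permutation test, two-sided, p = 0.03125, Benjamini-Hochberg adjusted over 18 lists, 0.2812). The near group was chosen for its closeness to biliary cells, and cells of neither rule can include bile duct cells that the rule missed. The cholangiocyte difference is thus in part built into the split, and its p is no separate support. The pericentral hepatocyte list, with only Glul and Lgr5 on the panel, summed to 23.4 near and 31.2 far. Hepatocyte genes summed to 903.9 and 968.9, and each of these lists was lower near in 5 of 6 areas (exact sign-flip permutation test, p = 0.09375 and 0.0625). Of the 20 nearest cells, 2.22% to 11.8% were Kupffer cells in near and 3.16% to 11.7% in far groups.

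Size and staining of Kupffer cells did not differ past the threshold either. Of 9 measures, 0 passed (exact sign-flip permutation test over 6 areas, adjusted p of 0.3616 or more). The median gene count per cell was 127.2 ± 23.7 near and 130.7 ± 21.2 far, and the median area was 9449 and 9917 square px, smaller near in 5 of 6 areas. The CD45 intensity was 2793 near and 2676 far, higher near in 5 of 6 areas, and the PanCK intensity was 2749 and 2797, lower near in 5 of 6. Negative probes made up 0.353% of the counts near and 0.284% far, higher near in 5 of 6 areas (exact p = 0.0625), and their part in the values above was not tested.

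The near minus far differences were then compared between genotypes. Of 455 targets, 0 were called (0.0%; edgeR's quasi-likelihood test on the interaction), 25 had an unadjusted p under 0.05 (5.49%), and DESeq2 called 0, with 1 at an unadjusted p under 0.05. Isg15, an interferon-induced ubiquitin-like protein gene, had the lowest p, with a near minus far difference 1.48 ± 0.46 higher in HIRA KO than in control on the log2 scale (edgeR, adjusted p = 0.703). Icam2 and Hilpda followed at 1.20 and 1.27 with the same adjusted p, and all 3 were named with their values known. The 95% interval of an interaction reached a median of 0.83 to either side, so only large differences between genotypes could have been seen.

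Within both the near and the far group, HIRA KO Kupffer cells differed from control Kupffer cells in a few genes, led by Cd163, the scavenger receptor for haptoglobin-bound haemoglobin. Of 491 targets tested in the near group, 3 were called (0.611%) and 35 had an unadjusted p under 0.05 (7.13%). Of 486 tested in the far group, 3 were called (0.617%) and 28 had an unadjusted p under 0.05 (5.76%). Areas of the genotypes did not overlap for 12.0% of the near and 10.7% of the far targets. Control and HIRA KO areas occupied different columns of the slide, so genotype and slide column cannot be told apart.

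Cd163 (chromosome 6, 124304656 to 124330527, plus strand, GRCm38) was at 21.8, 23.5 and 24.9 in near Kupffer cells of the control areas and at 6.1, 6.05 and 7.38 in those of HIRA KO. In far Kupffer cells it was at 34.5, 24 and 25.3 in controls and at 8.49, 5.95 and 5.55 in HIRA KO. Every control area was above every HIRA KO area in both groups, and the HIRA KO levels came close to those of other cells, which were 6.45 near in control and 4.76 in HIRA KO. In other cells, too, every control area was above every HIRA KO area near and far, with means 1.35-fold and 1.38-fold lower in HIRA KO. The highest negative probe in Kupffer cells stood at 4.38, not far below the HIRA KO levels, which limits the folds given next. Cd163 fell by 1.71 ± 0.33 on the log2 scale near (edgeR's quasi-likelihood test, adjusted p = 8.14e-05) and by 2.05 ± 0.28 far (edgeR, adjusted p = 7.27e-05), a 3.28-fold and a 4.15-fold lower level. The difference between these, near minus far, was 0.37 ± 0.39, with a 95% interval from -0.41 to 1.14 and an adjusted p of 0.973 in edgeR. Of the other 14 macrophage identity genes none was called in either group in edgeR, and the list had 3 genes higher and 12 lower in HIRA KO near, with a median of -0.25, and 7 higher and 8 lower far, with a median of -0.02. In the edge setting the Cd163 call of the near group was lost (-1.34, edgeR adjusted p = 0.323).

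Ttr, which encodes the thyroxine carrier transthyretin and is made by hepatocytes, was at 54.6, 67.3 and 80.0 in near Kupffer cells of control and at 179, 200 and 233 in those of HIRA KO. In far Kupffer cells it was at 63.7, 74.9 and 48.4 in control and 157, 225 and 227 in HIRA KO. The genotypes did not overlap, and Ttr was higher in HIRA KO by 1.66 ± 0.27 near and 1.79 ± 0.29 far on the log2 scale (edgeR's quasi-likelihood test, adjusted p = 1.79e-06 and 0.000663). Gc (chromosome 5, 89417522 to 89457898, minus strand), the vitamin D binding protein of hepatocytes, was at 22.9 ± 4.99 in control and 47.6 ± 6.26 in HIRA KO far Kupffer cells (n = 3 areas each; edgeR, log2 difference 1.12 ± 0.26, adjusted p = 0.041), and at 24.6 and 43.7 near, where it was not called. Leaving out any 1 area ended the Gc call, with an adjusted p in edgeR from 0.0719 to 0.756, at a log2 difference of 0.99 to 1.29. The call was also lost with library size only (1.04, adjusted p = 0.0572), with the outer parts of a split into 3 by distance (1.09, 0.0714), with a split within each field of view (1.02, 0.0901) and in the edge setting (1.09, 0.0888).

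Both hepatocyte genes were higher in HIRA KO in other cells as well. There Ttr was at 189 in control and 398 in HIRA KO near, and at 201 and 459 far, and Gc was at 50.1 and 84.9 near and at 50.7 and 88.8 far. In Kupffer cells the hepatocyte list, Ttr and Gc included, summed to 346.1 to 412.3 in control and 525.0 to 570.4 in HIRA KO near. Far, it summed to 334.5 to 443.2 and 510.3 to 619.5. In each group 0 of 19 markers were at 0 counts, which says little because negative probes had counts as well. Ttr alone had means of 67.3 in control and 204 in HIRA KO near, and 62.4 and 203 far. Sums without Ttr and Gc were not computed, so these sums do not show a rise across the list. Of 13 of these genes tested near, 9 were higher in HIRA KO with a median log2 difference of 0.43 and Ttr was called, and of 14 tested far, 9 were higher with a median of 0.44 and Ttr and Gc were called. With nuclear transcripts only, the Ttr difference was smaller, at 1.07 near and 1.02 far against 1.66 and 1.79 (edgeR, adjusted p = 0.0191 and 0.0363). The part of hepatocyte transcripts around Kupffer cells in these differences was not tested.

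Cxcl13 (chromosome 5, 95956951 to 95961068, plus strand) was also called in the near group, at a log2 difference of 1.60 ± 0.36 (edgeR's quasi-likelihood test, adjusted p = 0.0018), but this rested on HIRA KO area 3. HIRA KO areas 1 and 2 were at 2.62 and 4.84 against 7.32 to 14.3 in control, and area 3 was at 67.7. Without area 3 the difference was -1.35 (edgeR, adjusted p = 0.353), and DESeq2 gave an adjusted p of 0.998 with all areas. The call was also lost without control area 1 (1.85, edgeR adjusted p = 0.919) or control area 3 (1.34, 0.392), with the slide row as a block (1.02, 0.118), in the edge setting (0.76, 0.865), without the filter on cells (1.61, 0.104) and with the 4-count biliary rule (1.49, 0.721). In the far group the levels were 11.8 ± 2.60 in control and 32.3 ± 42.1 in HIRA KO (n = 3 areas each), again high in area 3 alone.

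**Figure D5:**
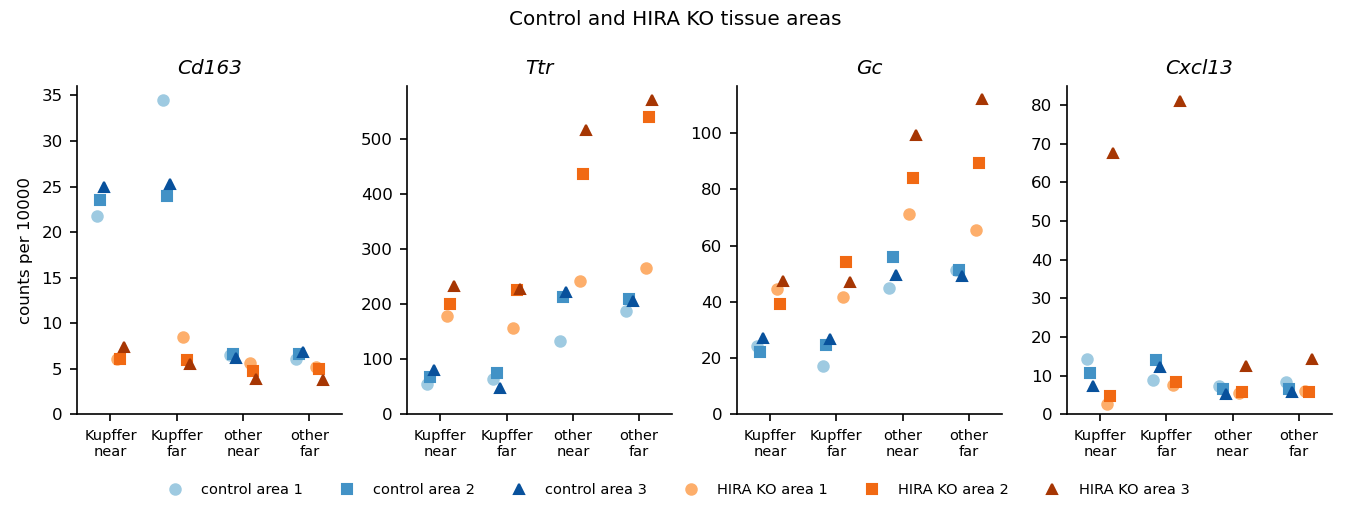
Levels (counts per 10000 gene counts) of Cd163, Ttr, Gc and Cxcl13 in near and far Kupffer cells and in near and far other cells, 1 point per tissue area, blue for control and orange for HIRA KO. Cd163 is apart between genotypes in Kupffer cells of both groups and, by less, in other cells. Ttr is higher in HIRA KO in Kupffer and other cells, and the high Cxcl13 points belong to HIRA KO area 3.

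MHC class II genes had a positive median between genotypes without any call. Of 8 tested near, 6 were higher in HIRA KO with a median log2 difference of 0.41, and of 9 tested far, 6 were higher with a median of 0.54, against -0.01 and 0.00 over all targets. Their summed level was 248.9 to 468.8 in control and 339.3 to 589.3 in HIRA KO near Kupffer cells, so the genotypes overlapped. Lysosomal and lipid-handling genes had 9 of 11 higher in HIRA KO near and 8 of 11 far, with medians of 0.28 and 0.22 and 0 called in edgeR in either group.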

How the data were processed

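The values analysed were those the authors deposited. These were unfiltered counts of single transcripts for each cell, with no normalization, and, per the file headers, the mean intensity of 5 stains, the area and the position of each cell. Decoding and segmentation were done by the platform. The versions of the decoding and segmentation software and the pixel size are not given in the sources used here. Each field of view took its genotype from the labels, and fields with consecutive numbers and 1 genotype formed a tissue area, 3 per group.

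Cells with fewer than 20 counts (2215) or an area above 5 times the geometric mean (252) were left out. The 6.89% of transcripts outside cells and the 10 negative probes entered no library size or test. The Kupffer rule, the biliary rule, the gene lists and the tests were chosen with earlier results of these data known.

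Counts were summed per area over near and over far Kupffer cells, 12 sums, and tested with edgeR's quasi-likelihood test (edgeR 4.0.16, limma 3.58.1, R 4.3.3; TMM, filterByExpr, area as a block for near against far) with Benjamini-Hochberg adjustment at 0.05. Near and far sums of 1 area come from the same section, which is where the pairing comes from. Other cells were split at the same distances. Exact two-sided permutation tests compared the medians of the areas, and their smallest p is 0.03125 over 6 areas and 0.1 for 3 against 3. The gene test was also run on simulated data with known changes, in which all areas shared the same levels and the same change. Genes named are those past the threshold and the member of each of 18 lists with the lowest p, and any other is said to have been picked with its values known. List members given beside them illustrate their list. Alternatives were DESeq2 1.42.0, library size without TMM, no filter on low counts and each area left out. Others were the outer parts of a split of the Kupffer cells into 3 by distance and a split within each field of view. Further ones were cells within 1 diameter left out, the edge setting, nuclear transcripts and stricter Kupffer and biliary rules. The last were no cell filter, cells of both rules left out, no block, the slide row as a block and 10 in place of 20 neighbours. Python 3.11.15, numpy 2.4.6, scipy 1.17.1 and pandas 2.3.3 were used. Gene positions are from GENCODE vM21.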

Additional observations from a re-analysis of the deposited data

Results flagged for a closer look

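Neutrophil genes among the 20 nearest cells of neither rule differed in direction between genotypes. Their summed level was lower around near than around far Kupffer cells in all 3 control areas, with a mean log2 ratio of -0.0252, and higher around near cells in all 3 HIRA KO areas, with a mean log2 ratio of 0.0802. The difference between genotypes was not tested.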

How the results depend on the processing

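The near against far comparison of Kupffer cells called 0 genes under all 20 alternatives (edgeR's quasi-likelihood test or DESeq2), with 0 to 30 genes at an unadjusted p under 0.05, among them the fit without the replicate block, that is without pairing the near and far sums of an area (11 at an unadjusted p under 0.05). The comparison by genotype and that of Kupffer with other cells called 0 under 19 alternatives each. Between genotypes, 1 gene was called near and 1 far with cells whose biliary neighbour was closer than the field edge, and 0 in either with a Kupffer rule of 8 counts and 8%, which left 220 Kupffer cells and 10 genes to test. Without 1 area, 2 to 5 genes were called near, 2 to 3 far and 2 to 3 in other cells, where DESeq2 called 5 and the edge setting 15. With the slide row as a block, 4 were called near and 3 far. Among the alternatives in which they were tested, Cd163 was called in the far group under all 18 and in the near group under 18 of 19, and Ttr under 19 of 20 in each. The distance ratio of Kupffer over other cells was 0.153 with biliary cells that held Spp1 and Clu. The distance difference between genotypes was 333.5 px with the biliary rule of 4 counts and 4%, and -198.3 to 50.2 px without 1 area.

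Other values turned direction without any call, and the cause was not tested. With the Kupffer rule of 8 counts and 8%, the log2 ratios were 0.142 for counts per cell, 0.191 for area, -0.0823 for counts per area, -0.0693 for CD45 and 0.0626 for B2M, and around the cells -0.0568 for macrophage, -0.0356 for MHC class II, 0.0334 for cytokine, -0.0295 for T and NK and -0.0467 for neutrophil genes. With the outer parts of a split into 3 by distance they were 0.0283 for B2M, -0.0124 for macrophage and 0.00859 for cytokine genes. With biliary cells that held Spp1 and Clu they were -0.0008 for CD45, -0.0306 for macrophage, 0.0305 for cytokine, 0.00675 for vessel, -0.0194 for T and NK and -0.0126 for neutrophil genes, and log2 differences in Kupffer cells were 0.03 for Ifitm3, -0.14 for Cldn4, -0.09 for Neat1, 0.13 for Eng and -0.19 for Elane. With the biliary rule of 4 counts and 4% they were 0.0477 for cytokine and -0.0297 for neutrophil genes, and -0.02 for Plac8, 0.00 for Lgals3, 0.01 for Ifitm3, -0.01 for Cldn4, -0.07 for Neat1 and -0.24 for Hbb. With 10 neighbours they were -0.015 for interferon, 0.0293 for vessel and 0.0605 for erythroid genes. Neat1 was at -0.05 in the edge setting, Glul, Eng and Hbb at 0.06, 0.11 and -0.06 with a split within each field of view, and Glul at 0.10 with nuclear transcripts. Without 1 area the ranges were -0.0168 to 0.0152 for B2M, -0.00661 to 0.0145 for macrophage, -0.0178 to 0.00346 for cytokine, -0.0078 to 0.0408 for sinusoidal, -0.0316 to 0.00256 for vessel and -0.06 to 0.055 for erythroid genes, -0.16 to 0.01 for Glul, and -1.35 to 2.06 for Cxcl13 between genotypes in the near group, negative without HIRA KO area 3.

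A biliary rule of 6 counts and 6% left 7 biliary cells and 2 areas with none, so it gave no value, and rules of 4 counts and of Spp1 and Clu were added after seeing the data. Depth limited the comparison to genes with counts in most sums.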
